A study of Mus musculus with 8 samples.

Results

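Transcripts of 10 genes that build, trim or carry heparan sulfate were examined in chronic stroke infarcts: the glucuronidase *Hpse* (heparanase), the extracellular sulfatases *Sulf1* and *Sulf2*, the sulfotransferase *Hs3st1*, the syndecans *Sdc1*, *Sdc2*, *Sdc3* and *Sdc4*, and the glypicans *Gpc1* and *Gpc4*. The genes were taken by symbol from the 46078 gene identifiers of each count table, and all 10 were found and tested. The tissue came from male wild type C57BL/6J mice aged 18 months, all given a DH stroke (distal occlusion of the middle cerebral artery followed by hypoxia). From 1 week after stroke, 4 mice received subcutaneous HPBCD (2-hydroxypropyl-β-cyclodextrin, a sugar ring that takes up cholesterol and other lipids) at 4 g/kg, 3 times per week for 6 weeks, and 4 mice received sterile PBS as vehicle on the same schedule. Infarcts were dissected by eye at 7 weeks after stroke, so the amount of neighboring brain in each piece was not set by the procedure, and each library is 1 animal.

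Heparan sulfate is a long, sulfated sugar chain attached to core proteins at the cell surface and in basement membranes. Syndecans cross the membrane, glypicans are held to it by a lipid anchor, and their chains bind growth factors, chemokines and lipases and present them to receptors. Heparanase cuts the chains, the Sulf enzymes remove sulfate groups from them outside the cell, and a series of lysosomal enzymes takes them apart after uptake. After brain injury, heparan sulfate proteoglycans are known from vessels, meninges, reactive glia and phagocytes.

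The libraries held between 16.6 M and 32.9 M gene counts, and the deepest was that of vehicle animal 2. Vehicle animals 1 and 3 stood apart from the rest by neuron transcripts. The summed level of 7 neuron markers was 937 CPM in the former and 5947 CPM in the latter (CPM, counts per 1 M gene counts, after scaling between libraries), and between 7.78 and 81.5 CPM in the other 6 libraries. Values without both animals are given beside some of the results, and values given only with all libraries may also depend on these animals. In bulk tissue, fewer cells of a type and less RNA per cell cannot be told apart.

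*Hpse* was the 1 gene of the 10 that passed the test, and it was higher by a factor of 2.04 in HPBCD infarcts. *Sulf2* and *Gpc4* were also higher in all 4 HPBCD animals than in all 4 vehicle animals, without passing. *Sulf1*, *Sdc1*, *Sdc2*, *Sdc3*, *Gpc1*, *Sdc4* and *Hs3st1* had overlapping groups. Calls are adjusted p-values under 0.05 from the quasi-likelihood F test of edgeR (Benjamini-Hochberg, 14736 genes). The test sets the difference between the groups against the spread between these animals. Of the 10 genes 1 was called higher and 0 lower, and of all tested genes 1.95% were called, 1.17% higher and 0.774% lower. An unadjusted p under 0.05 was reached by 4 of the 10, all higher, and by 27.8% of all tested genes, 11.8% higher and 16.0% lower. The groups did not overlap for 3 of the 10, all higher, and for 16.8% of all tested genes, 8.77% higher and 8.03% lower. DESeq2 called these 3 genes higher and none lower, beside 17.5% of all genes it tested, 6.10% higher and 11.4% lower. The median log2 fold change of the 10 genes was 0.50, and that of all tested genes was -0.05.

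**Figure D1:**
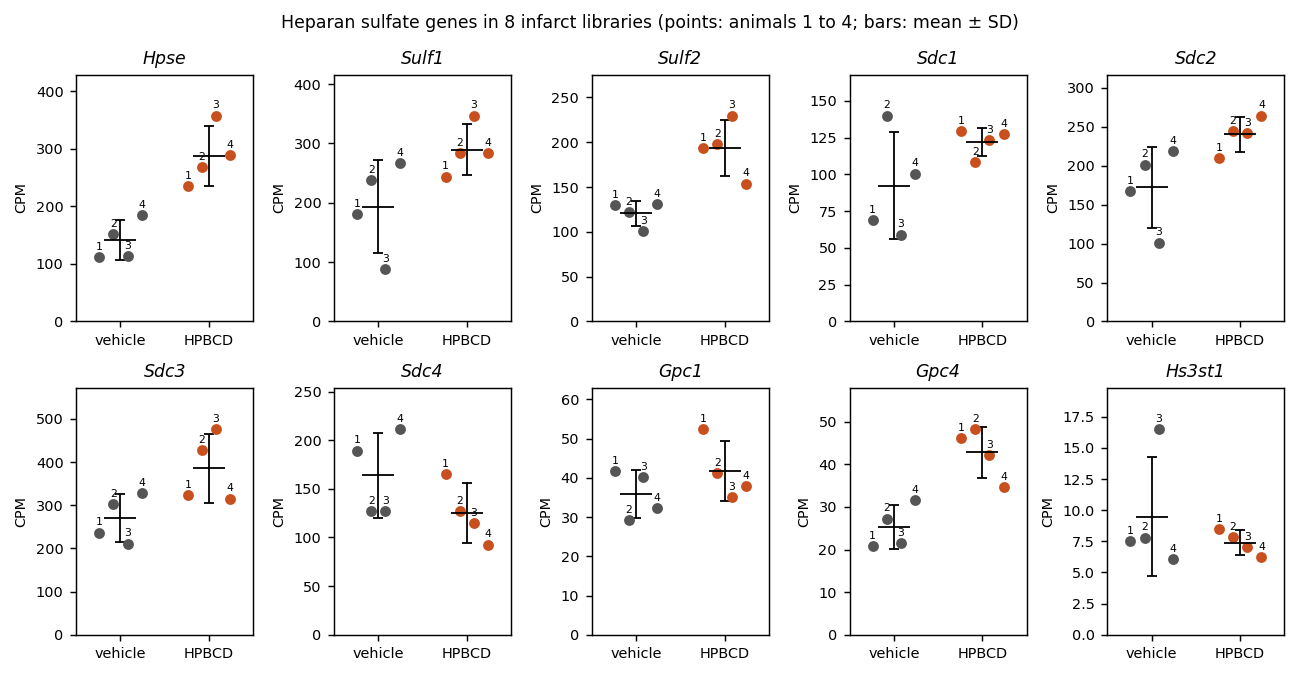
Expression of the 10 genes in every library, in CPM on axes that start at 0, with vehicle animals in gray and HPBCD animals in orange. Digits give the animal number, and bars give the mean ± SD of 4 animals. The groups lie apart for *Hpse*, *Sulf2* and *Gpc4*, and *Hs3st1* has 1 high value, in vehicle animal 3.

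Heparanase is the endoglucuronidase that cuts heparan sulfate chains into shorter pieces, in lysosomes and outside the cell. *Hpse* (ENSMUSG00000035273, GRCm38 chromosome 5, 100679484 to 100719716, minus strand) was at 111.9, 151.6, 114 and 185 CPM in vehicle animals 1 to 4 and at 235.1, 267.6, 357.2 and 289.4 CPM in HPBCD animals 1 to 4. The lowest HPBCD animal lay 50.1 CPM above the highest vehicle animal. The mean rose from 141 ± 34.7 to 287 ± 51.6 CPM (SD, n = 4 each), or by 1.03 on the log2 scale (SE 0.21, 95% interval 0.56 to 1.51, edgeR adjusted p = 0.0499). The study had already named *Hpse* from these samples, so its call is not independent evidence. Without vehicle animals 1 and 3, the log2 difference was 0.79 (SE 0.20, edgeR adjusted p = 0.0853). Leaving out 1 library at a time, the edgeR adjusted p was 0.0427 without vehicle animal 3, and the call was lost without each of the other 7. It was then 0.157, 0.0510 and 0.0635 without vehicle animals 1, 2 and 4, and 0.156, 0.175, 0.0933 and 0.0645 without HPBCD animals 1 to 4, with a log2 fold change between 0.91 and 1.21.

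The genes whose profile over the 8 libraries lay nearest to that of *Hpse* were *Ctsd*, *Ctsb*, *Matn2*, *Tpp1* and *Galc*. Nearness was the root mean square difference in log2 CPM after each gene was centered on its own mean. It was 0.09 for *Ctsd*, 0.12 for *Ctsb*, 0.13 for *Matn2*, 0.13 for *Tpp1* and 0.14 for *Galc*, and its median over the 13980 genes searched was 0.66. *Ctsd* and *Ctsb* encode lysosomal proteases, *Tpp1* a lysosomal peptidase and *Galc* the lysosomal galactosylceramidase of myelin lipid breakdown. *Matn2* encodes a matrix protein. None of the 5 passed the test, with log2 fold changes from 0.85 to 0.98 and edgeR adjusted p-values from 0.0636 to 0.0829. The libraries share treatment as well as tissue makeup, so this nearness is a description only.

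The sequence upstream of *Hpse* was set beside that of *Sulf2*, the other enzyme whose groups lay apart, and of *Sdc3*, a syndecan whose groups overlapped. The 250 bases before the RefSeq transcription start (GRCm38.p6) are shown 5′ to 3′ on the gene's own strand, with capitals at matches to the motifs searched. These were CACGTG (the E-box read by MiT/TFE factors of the lysosome program), its longer form TCACGTGA, GGGCGG (the GC box), CCGGAAG (an ETS site) and TATAAA, each on both strands. Every TCACGTGA also holds CACGTG. The windows are chr5:100719717-100719966, chr2:166155684-166155933 and chr4:130792287-130792536, on the minus, minus and plus strand.
Hpse: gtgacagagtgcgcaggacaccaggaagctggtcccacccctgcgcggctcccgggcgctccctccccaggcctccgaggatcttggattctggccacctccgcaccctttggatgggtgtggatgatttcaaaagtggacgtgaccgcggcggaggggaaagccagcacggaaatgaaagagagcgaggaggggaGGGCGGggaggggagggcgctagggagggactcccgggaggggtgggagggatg
Sulf2: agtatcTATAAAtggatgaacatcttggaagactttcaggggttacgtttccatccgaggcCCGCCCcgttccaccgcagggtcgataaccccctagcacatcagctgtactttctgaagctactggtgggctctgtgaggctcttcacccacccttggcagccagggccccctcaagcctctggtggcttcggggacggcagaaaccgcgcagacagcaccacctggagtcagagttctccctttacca
Sdc3: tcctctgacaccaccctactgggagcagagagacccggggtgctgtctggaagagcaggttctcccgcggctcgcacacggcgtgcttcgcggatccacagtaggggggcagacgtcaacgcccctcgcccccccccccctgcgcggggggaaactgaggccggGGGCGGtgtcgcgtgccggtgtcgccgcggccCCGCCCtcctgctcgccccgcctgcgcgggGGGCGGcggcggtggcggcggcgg
The *Hpse* window held a single match, a GC box that begins 54 bases before the start. The *Sulf2* window shown, at the first of its 2 RefSeq starts, held a GC box at 189 bases and TATAAA at 244 bases before the start, and the *Sdc3* window held 3 GC boxes. At the second *Sulf2* start (chr2:166155286-166155535, 60.0% GC) no motif searched was found. GC content was 66.8% for *Hpse*, 57.2% for *Sulf2* and 76.4% for *Sdc3*. A GC box was present in 32.7% of 32851 such windows over all genes, TATAAA in 12.4%, CACGTG in 6.02% and CCGGAAG in 6.91%. No CACGTG was found in the windows of the 7 genes with a RefSeq promoter entry, which are *Hpse*, *Sulf2*, *Sdc1*, *Sdc3*, *Sdc4*, *Gpc4* and *Hs3st1*. A letter match is a description of the window and not a binding site.

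The Sulf enzymes remove 6-O-sulfate groups from finished chains and thereby change which growth factors bind. *Sulf2* (chromosome 2, 166073089 to 166155663, minus strand) was at 129.5, 122.1, 100.6 and 130.6 CPM in vehicle animals 1 to 4 and at 193.6, 197.8, 229.6 and 153.9 CPM in HPBCD animals 1 to 4. All HPBCD animals lay above all vehicle animals, by at least 23.3 CPM. On the log2 scale *Sulf2* differed by 0.68 (SE 0.16, 95% interval 0.32 to 1.04, edgeR adjusted p = 0.0602), and the gene ranked 488 of 14736 by p-value. Without HPBCD animal 4, the lowest of its group, *Sulf2* passed, at 0.78 (edgeR adjusted p = 0.0436). It did not pass when any other single library was left out. The edgeR adjusted p then lay between 0.0549 (without vehicle animal 3) and 0.184 (without HPBCD animal 2). Without vehicle animals 1 and 3 the value was 0.63, close to that of all libraries (edgeR adjusted p = 0.111).

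*Sulf1* (chromosome 1, 12692277 to 12861192, plus strand) was at 181.4, 238.2, 88.4 and 266.6 CPM in vehicle animals 1 to 4 and at 244.1, 283.8, 346.7 and 283.5 CPM in HPBCD animals 1 to 4. Vehicle animal 4 lay above HPBCD animal 1, and vehicle animal 3 was far below all others. Its log2 difference was 0.58 (SE 0.31, edgeR adjusted p = 0.257) with all libraries and 0.21 (SE 0.17, edgeR adjusted p = 0.487) without vehicle animals 1 and 3. *Sulf1* took 43.8% ± 9.31 of the summed Sulf transcripts per merged exon length in vehicle infarcts and 43.8% ± 3.88 in HPBCD infarcts (SD, n = 4 each), with a wider spread among the vehicle animals. Which Sulf gene is higher depends on the length used. Over all libraries the mean CPM per kilobase was 21.4 for *Sulf1* and 26.8 for *Sulf2* with merged exons. With the longest transcript as length it was 43.2 for *Sulf1* and 34.3 for *Sulf2*.

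*Hs3st1* encodes the sulfotransferase that adds the 3-O-sulfate found in antithrombin-binding chains. It had the lowest level of the 10, with between 112 and 273 counts per library, on chromosome 5 (39613935 to 39755475, minus strand). It was at 7.52, 7.81, 16.5 and 6.08 CPM in vehicle animals 1 to 4 and at 8.50, 7.84, 7.03 and 6.22 CPM in HPBCD animals 1 to 4. The value in vehicle animal 3, which also had the highest neuron level, stood clear of all others. The log2 difference was -0.36 (SE 0.32, edgeR adjusted p = 0.507). Its sign turned without vehicle animal 3, to 0.05, and without vehicle animals 1 and 3 together, to 0.10.

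Syndecans carry heparan sulfate on a transmembrane core. *Sdc3*, the syndecan named for neurons and also made by phagocytes, is on chromosome 4 (130792537 to 130826319, plus strand). It was at 236.7, 303.4, 211 and 328.2 CPM in vehicle animals 1 to 4 and at 322.5, 427.3, 476.5 and 315.5 CPM in HPBCD animals 1 to 4. HPBCD animals 2 and 3 lay above every vehicle animal, and HPBCD animals 1 and 4 lay just below vehicle animal 4. On the log2 scale *Sdc3* differed by 0.51 (SE 0.21, edgeR adjusted p = 0.149). *Sdc2*, a syndecan of fibroblasts and vessel cells, is on chromosome 15 (32920723 to 33034935, plus strand). It was at 167.2, 201.2, 101.1 and 218.7 CPM in the vehicle group and at 209.6, 244.7, 242 and 264.1 CPM in HPBCD animals, in the same order of animals. Vehicle animal 4 lay above HPBCD animal 1, and the log2 difference was 0.48 (SE 0.23, edgeR adjusted p = 0.211). Without vehicle animals 1 and 3, the log2 fold changes were 0.30 for *Sdc3* and 0.21 for *Sdc2*.

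*Sdc1*, whose product CD138 marks plasma cells and epithelia, is on chromosome 12 (8771323 to 8793715, plus strand). It was at 69.1, 139.9, 59.1 and 100.5 CPM in vehicle animals 1 to 4 and at 129.6, 108.3, 123.5 and 127.2 CPM in HPBCD animals 1 to 4. Vehicle animal 2 had the highest value of all, and the other 3 vehicle animals lay below all HPBCD animals. The log2 difference was 0.41 (SE 0.26, 95% interval -0.18 to 0.99, edgeR adjusted p = 0.339), and 0.04 without vehicle animals 1 and 3. Without vehicle animal 2 it was 0.68 (edgeR adjusted p = 0.0708). The summed level of 6 plasma cell markers ranged from 1094 to 2509 CPM in vehicle and from 218 to 434 CPM in HPBCD infarcts, the opposite direction to the mean of *Sdc1*.

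*Sdc4*, a syndecan of focal adhesions that is made by many cell types, is on chromosome 2 (164424247 to 164443887, minus strand). It was the 1 syndecan with a lower mean in HPBCD infarcts. It was at 189.2, 127.2, 127 and 211.5 CPM in vehicle animals 1 to 4 and at 165.3, 127.3, 115.1 and 92.6 CPM in HPBCD animals 1 to 4. The groups overlapped, and 2 vehicle animals lay at the level of HPBCD animal 2. The log2 difference was -0.39 (SE 0.24, 95% interval -0.92 to 0.15, edgeR adjusted p = 0.318) and stayed negative in all 19 alternative settings, between -0.55 and -0.23. *Sdc4* made up 41.4%, 25.7%, 38.6% and 36.7% of the summed syndecan level per length in vehicle animals 1 to 4 and 30.6%, 22.8%, 20% and 18.4% in HPBCD animals 1 to 4. These shares overlapped between the groups in vehicle animal 2 and HPBCD animal 1, and the summed syndecan level was 182 ± 40.4 RPKM (reads per kilobase of merged exons and per 1 M gene counts) in vehicle and 214 ± 12.2 RPKM in HPBCD infarcts.

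**Figure D2:**
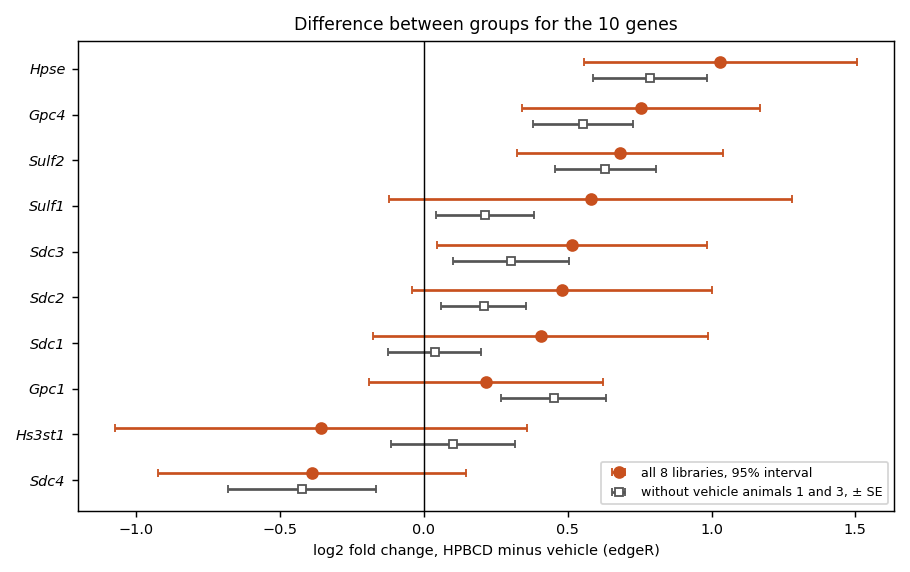
Log2 fold changes between HPBCD and vehicle infarcts for the 10 genes, with 95% intervals from all 8 libraries (orange circles) and with ± SE after leaving out vehicle animals 1 and 3 (open squares). *Hpse*, *Gpc4*, *Sulf2* and *Sdc3* have intervals above 0, and the intervals are not adjusted for the number of genes. Squares lie closer to 0 than circles for *Sulf1* (0.21), *Sdc2* (0.21) and *Sdc1* (0.04). The same holds for *Hpse* (0.79), *Gpc4* (0.55), *Sulf2* (0.63) and *Sdc3* (0.30). Those of *Gpc1* (0.45) and *Sdc4* (-0.42) lie further from 0, and that of *Hs3st1* (0.10) has the other sign.

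Glypicans hold their chains close to the membrane through a lipid anchor. *Gpc4*, a glypican of astrocytes and precursor cells, is on chromosome X (52053021 to 52165252, minus strand). It was at 20.8, 27.2, 21.6 and 31.7 CPM in vehicle animals 1 to 4 and at 46.1, 48.3, 42.1 and 34.6 CPM in HPBCD animals 1 to 4. All HPBCD animals lay above all vehicle animals, although HPBCD animal 4 was only 2.9 CPM above vehicle animal 4. On the log2 scale *Gpc4* differed by 0.76 (SE 0.18, 95% interval 0.34 to 1.17, edgeR adjusted p = 0.0634), and 0.55 (SE 0.17, edgeR adjusted p = 0.132) without vehicle animals 1 and 3.

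*Gpc1*, a glypican of neurons and vessels, is on chromosome 1 (92831645 to 92860779, plus strand). It was at 41.8, 29.3, 40.1 and 32.4 CPM in vehicle animals 1 to 4 and at 52.5, 41.3, 35.2 and 37.9 CPM in HPBCD animals 1 to 4. Its vehicle values were highest in animals 1 and 3, the animals with neuron transcripts. The log2 difference was 0.22 (SE 0.18, edgeR adjusted p = 0.474) with all libraries and 0.45 (SE 0.18, edgeR adjusted p = 0.202) without those animals. Without HPBCD animal 1, the highest of its group, it was 0.09 (edgeR adjusted p = 0.810). Of its exon length, 18.9% lies opposite exons of *Ankmy1*, and the strand setting of the counting was not given.

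Levels were compared between genes only per length, in RPKM. Over all 8 libraries *Hpse* had the highest mean level of the 10 genes, at 60.9 ± 25.1 RPKM (SD, n = 8), and *Hs3st1* the lowest, at 3.79 ± 1.51 RPKM. The means of *Sdc2* (58.4 RPKM), *Sdc4* (56.7 RPKM) and *Sdc3* (54.7 RPKM) lay within the spread of *Hpse* and of each other. *Sdc3* was above *Sdc1* in all 8 libraries, while *Sdc1* was above *Sulf2* in 4 of 8. In vehicle infarcts the order of the means was *Sdc4*, *Sdc2*, *Sdc3*, *Hpse*, and all 4 vehicle animals had more *Sdc3* than *Hpse*. In HPBCD infarcts it was *Hpse*, *Sdc2*, *Sdc3*, *Sdc4*, and all 4 HPBCD animals had more *Hpse* than *Sdc2*. With the longest transcript as length, *Hpse* and *Hs3st1* kept the first and the last place and *Sdc3* moved from the fourth place to the second. *Sulf1* then moved from place 7 to place 5, above *Sulf2* at place 6. *Sdc2* moved from place 2 to place 4 and *Sdc1* from place 5 to place 7.

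**Figure D3:**
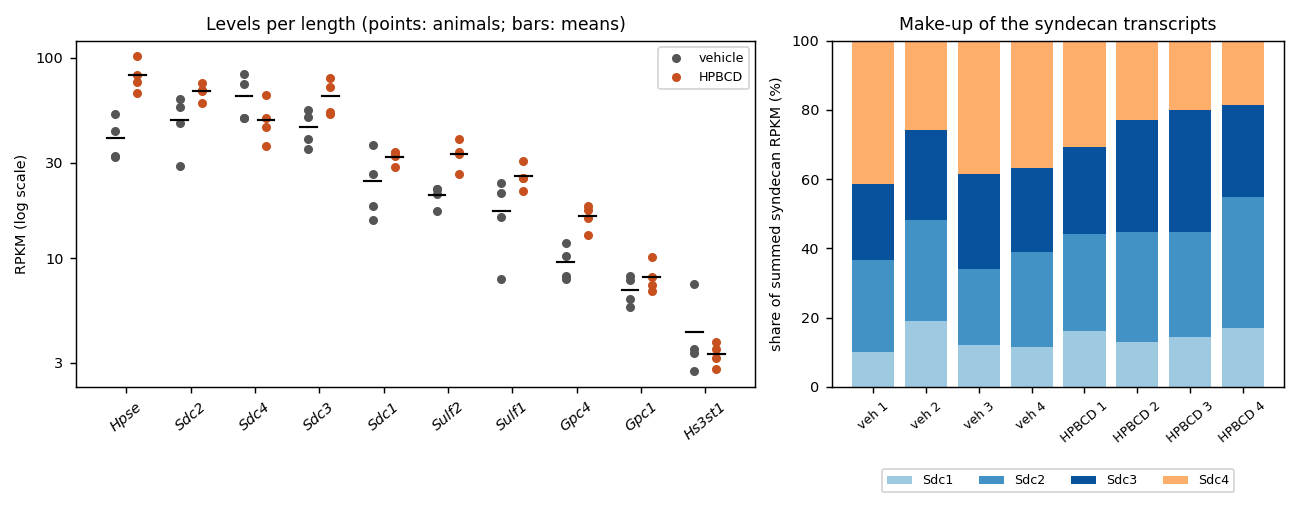
Left, level per length of the 10 genes in RPKM on a log scale, with 1 point per animal, vehicle in gray, HPBCD in orange and means as bars. Right, share of each syndecan in the summed syndecan RPKM of each library, in which *Sdc4* ranges from 25.7% to 41.4% in vehicle and from 18.4% to 30.6% in HPBCD infarcts.

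Other genes of the pathway were grouped by role. Of 83 further genes, 73 were tested and 7 passed, 5 higher and 2 lower in HPBCD infarcts. This is 9.59% of them, beside 1.95% of all tested genes. The 7 were the core proteins *Hspg2* and *Col18a1*, the lysosomal enzyme *Naglu*, the ligands *Mdk*, *Cxcl12* and *Hbegf*, and the receptor *Fgfr3*. The lists were drawn up with earlier results of these data known, so the share is a description.

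Among 7 tested further core proteins, 6 had positive values, beside 6771 of all 14736 tested genes. By edgeR 2 of the 7 were called higher and none lower, beside 1.17% and 0.774% of all tested genes. An unadjusted edgeR p under 0.05 was reached by 4 higher and 1 lower, beside 11.8% and 16.0% of all tested genes. DESeq2 called the same 2 genes higher and *Gpc5* lower, beside 6.10% and 11.4% of all genes it tested. The median log2 fold change was 0.50. *Hspg2* (perlecan, a core protein of vessel basement membranes, chromosome 4, 137468769 to 137570630) rose, with means of 72.6 ± 14.7 CPM in vehicle and 160 ± 25.8 CPM in HPBCD infarcts and a log2 difference of 1.14 (SE 0.19, edgeR adjusted p = 0.0436). *Col18a1* (the collagen XVIII core protein, source of endostatin, chromosome 10, 77052178 to 77166548) rose, with means of 106 ± 33 CPM in vehicle and 240 ± 43.9 CPM in HPBCD infarcts and a log2 difference of 1.18 (SE 0.24, edgeR adjusted p = 0.0499). The most abundant further glypican was *Gpc6*, at 0.60 (SE 0.23, edgeR adjusted p = 0.137), and the coreceptor *Tgfbr3* was at 0.50 (SE 0.19, edgeR adjusted p = 0.130). Without vehicle animals 1 and 3 the values were 0.30 (SE 0.17) for *Gpc6* and 0.26 (SE 0.15) for *Tgfbr3*.

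The astrocyte glypican *Gpc5* was at 15.7, 2.58, 73.4 and 4.63 CPM in vehicle animals 1 to 4 and at 0.632, 0.552, 2.42 and 1.28 CPM in HPBCD animals 1 to 4. All vehicle animals lay above all HPBCD animals, vehicle animal 2 only narrowly, and vehicle animals 3 and 1 had the highest values. On the log2 scale *Gpc5* differed by -4.29 (SE 1.19, edgeR adjusted p = 0.0824, DESeq2 adjusted p = 8.63e-05), and by -1.52 (SE 0.55, edgeR adjusted p = 0.166) without vehicle animals 1 and 3. The summed level of 6 astrocyte markers ranged from 2298 to 8902 CPM in vehicle and from 674 to 2410 CPM in HPBCD infarcts, with no marker at 0 in any library. The part of astrocyte content in the *Gpc5* difference was not tested.

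Of 12 tested genes for chain initiation and polymerization none passed by edgeR, and the median log2 fold change was 0.02. An unadjusted edgeR p under 0.05 was reached by 2, beside 27.8% of all tested genes. DESeq2 called 1 lower (*Extl1*), beside 11.4% of all genes it tested. The xylose kinase *Fam20b* had means of 125 ± 12.6 CPM (vehicle) and 125 ± 14.8 CPM (HPBCD) (log2 fold change 0.00, SE 0.14). The initiating transferase *Extl3* was at 0.11 (SE 0.14) and *Extl2* at -0.20 (SE 0.23). *Ext2*, a subunit of the chain polymerase, had the largest positive value, 0.56 (SE 0.23, edgeR adjusted p = 0.154), and its lowest HPBCD value exceeded its highest vehicle value by only 0.02 CPM. *Extl1* was at 8.54, 1.92, 43.2 and 2.26 CPM in vehicle animals 1 to 4 and at most 1.07 CPM in HPBCD infarcts, again with the highest values in vehicle animals 3 and 1 (log2 fold change -4.37, SE 1.21, edgeR adjusted p = 0.0824). Without those animals the values were -1.62 for *Extl1* (SE 0.57, edgeR adjusted p = 0.157) and 0.21 for *Extl2* (SE 0.13), whose sign turned.

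Of 5 tested genes that make or carry the sulfate donor, none passed by edgeR or DESeq2. An unadjusted edgeR p under 0.05 was reached by 1, beside 27.8% of all tested genes. The sulfate transporter *Slc26a2* had the highest level and the largest positive value, 0.74 (SE 0.33, edgeR adjusted p = 0.181). Without vehicle animals 1 and 3 the value of *Slc26a2* was 0.41 (SE 0.33, edgeR adjusted p = 0.487). *Papss1* and *Papss2*, which make the donor PAPS, were at 0.00 (SE 0.16) and 0.25 (SE 0.23). Of 15 chain-modifying enzymes, 10 were tested and none passed by edgeR. An unadjusted edgeR p under 0.05 was reached by 2 higher and 3 lower, beside 11.8% and 16.0% of all tested genes. DESeq2, which also tested genes of this list that the edgeR filter removed, called 4, all lower, beside 11.4% over all genes. *Ndst1*, *Hs2st1* and *Glce*, the most abundant, were at 0.22 (SE 0.19), -0.14 (SE 0.14) and 0.40 (SE 0.18). *Hs6st1*, which adds the 6-O-sulfates that Sulf enzymes remove, was at 0.50 (SE 0.18, edgeR adjusted p = 0.122). *Hs3st2*, a 3-O-sulfotransferase of neurons, was at 6.79 CPM in vehicle animal 1, 9.99 CPM in vehicle animal 3 and at most 0.966 CPM in the other 6 libraries, and its log2 difference was -4.01 (SE 1.63, edgeR adjusted p = 0.162) with and -0.39 (SE 1.36, edgeR adjusted p = 0.888) without those animals.

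The lysosomal enzymes that take the chains apart had the highest median of all groups, 0.63 over 8 tested genes. Of these, 7 had positive values and 1 had a negative value, beside 6771 positive values among all 14736 tested genes. *Naglu* (N-acetylglucosaminidase alpha, chromosome 11, 101070012 to 101077672) rose, with means of 60.8 ± 13.2 CPM in vehicle and 135 ± 17.9 CPM in HPBCD infarcts and a log2 difference of 1.15 (SE 0.18, edgeR adjusted p = 0.0427), and was the 1 call. In 5 of the 8 the HPBCD animals all lay above the vehicle animals, beside 8.77% of all tested genes, and DESeq2 called 4 of the 8 higher, beside 6.10%. *Gusb* was at 0.61 (SE 0.23, edgeR adjusted p = 0.129), and at 0.38 (SE 0.23, edgeR adjusted p = 0.36) without vehicle animals 1 and 3. *Ids*, the iduronate sulfatase, had the negative value, -0.68 (SE 0.30, edgeR adjusted p = 0.177), and it was at 679 CPM in vehicle animal 1, 882 CPM in vehicle animal 3 and between 331 and 402 CPM in the other 6 libraries. Without vehicle animals 1 and 3 the value of *Ids* was -0.02 (SE 0.15, edgeR adjusted p = 0.956). *Hpse2*, the heparanase relative without this cutting activity, had no count in any library. In the upstream windows, *Naglu* and *Sgsh* held a CACGTG among the 7 lysosomal genes with a promoter entry.

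The summed level of 6 foamy macrophage markers ranged from 7179 to 13280 CPM in vehicle and from 16540 to 27830 CPM in HPBCD infarcts, with 5 of 6 markers higher, 1 of them called, and none at 0 in any library. *Hpse* and 7 of the 8 tested lysosomal enzymes had the same group direction, and the order of animals within the groups was not compared. The part of these marker levels in those differences was not tested. The summed level of 6 fibroblast markers ranged from 2298 to 5863 CPM in vehicle and from 8432 to 9033 CPM in HPBCD infarcts, with 6 of 6 higher, 3 called and none at 0. Of all 14736 tested genes, 6771 had positive values and 1.17% were called higher. *Hspg2*, *Col18a1*, *Sulf2* and *Gpc4* had the same group direction as the fibroblast levels, and the order of animals within the groups was not compared. Of 6 mural cell markers 6 were higher, and of 6 endothelial markers 5 were higher, with none called. The summed levels of both lists overlapped between the groups. Of 6 microglia markers 4 were lower, with 1 called lower, beside 0.774% of all tested genes. The summed microglia level ranged from 488 to 1015 CPM in vehicle and from 649 to 1055 CPM in HPBCD infarcts. Of 6 astrocyte markers 5 were lower, the opposite direction to *Gpc4*. The part of these cell types in those differences was not tested either.

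Ligands that bind heparan sulfate moved in both directions, with 2 called higher and 1 called lower among 15 tested. Over all tested genes 1.17% were called higher and 0.774% lower by edgeR. DESeq2 called 3 ligands higher and 3 lower, beside 6.10% and 11.4% of all genes it tested. *Mdk* (midkine, a heparin-binding growth factor, chromosome 2, 91929805 to 91932297) rose, with means of 42 ± 4.04 CPM in vehicle and 109 ± 27.1 CPM in HPBCD infarcts and a log2 difference of 1.38 (SE 0.20, edgeR adjusted p = 0.0392). Its relative *Ptn* (pleiotrophin) had the opposite sign, with 317 ± 49.3 CPM in vehicle and 193 ± 20.8 CPM in HPBCD infarcts, groups that did not overlap, and a log2 difference of -0.72 (SE 0.16, edgeR adjusted p = 0.0545). The chemokine *Cxcl12* (chromosome 6, 117168535 to 117181367), which syndecans and other proteoglycans hold at the cell surface, rose from 863 ± 248 to 1890 ± 218 CPM, a log2 difference of 1.13 (SE 0.23, edgeR adjusted p = 0.0499). *Hbegf*, a heparin-binding ligand of the EGF receptor, fell from 8.87 ± 1.88 to 3.69 ± 0.879 CPM, a log2 difference of -1.26 (SE 0.24, edgeR adjusted p = 0.0483). *Lpl*, the lipase that heparan sulfate anchors to vessel walls, was at -0.21 (SE 0.35, edgeR adjusted p = 0.743). Without vehicle animals 1 and 3 the value of *Lpl* was -0.64 (SE 0.24, edgeR adjusted p = 0.179).

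Of 10 tested receptors that use heparan sulfate as a coreceptor or ligand, 1 passed by edgeR, and it was lower, while DESeq2 called 3 higher and 1 lower. The shares over all tested genes were 1.17% higher and 0.774% lower by edgeR, and 6.10% and 11.4% by DESeq2. *Fgfr3* (chromosome 5, 33721674 to 33737068), an FGF receptor of astrocytes, was at 61.8, 31.4, 137.7 and 37.5 CPM in vehicle animals 1 to 4 and at 9.19, 9.13, 16.7 and 12.3 CPM in HPBCD animals 1 to 4. Of its exon length, 13.9% lies opposite another gene. On the log2 scale the difference was -2.50 (SE 0.49, edgeR adjusted p = 0.0499), and -1.52 (SE 0.25, edgeR adjusted p = 0.0341) without vehicle animals 1 and 3. The astrocyte markers described beside *Gpc5* also had lower values in HPBCD infarcts (5 of 6, median log2 fold change -1.57), and their part in the *Fgfr3* difference was not tested. *Fgfr1* and *Nrp1* had the opposite sign, 0.70 (SE 0.19, edgeR adjusted p = 0.0757) and 0.81 (SE 0.22, edgeR adjusted p = 0.0785), with groups that did not overlap. They were at 0.47 (SE 0.16, edgeR adjusted p = 0.152) and 0.53 (SE 0.18, edgeR adjusted p = 0.144) without vehicle animals 1 and 3. The study had already named *Nrp1* from these samples. *Ptprs*, a heparan sulfate receptor on axons, was at -0.17 (SE 0.30). Among 6 tested genes, mostly proteases, that were listed for release of proteoglycans from the cell surface, none passed by edgeR. An unadjusted edgeR p under 0.05, beside 27.8% of all tested genes, was reached by 1, which DESeq2 called higher, beside 6.10%. This was *Mmp2*, at 91 ± 37.7 CPM in vehicle and 192 ± 10.6 CPM in HPBCD infarcts, a log2 difference of 1.08 (SE 0.31, edgeR adjusted p = 0.0814). *Adam10* and *Mmp14* were at 0.26 (SE 0.24) and 0.59 (SE 0.31), and *Notum*, also on this list, was at -0.95 (SE 0.51). Without vehicle animals 1 and 3, *Mmp2* (0.71, edgeR adjusted p = 0.0443) and *Ptn* (-0.88, edgeR adjusted p = 0.0341) passed, and the sign turned for *Adam10* (-0.03) and *Ptprs* (0.32). *Mmp14* was then at 0.20 (SE 0.22).

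**Figure D4:**
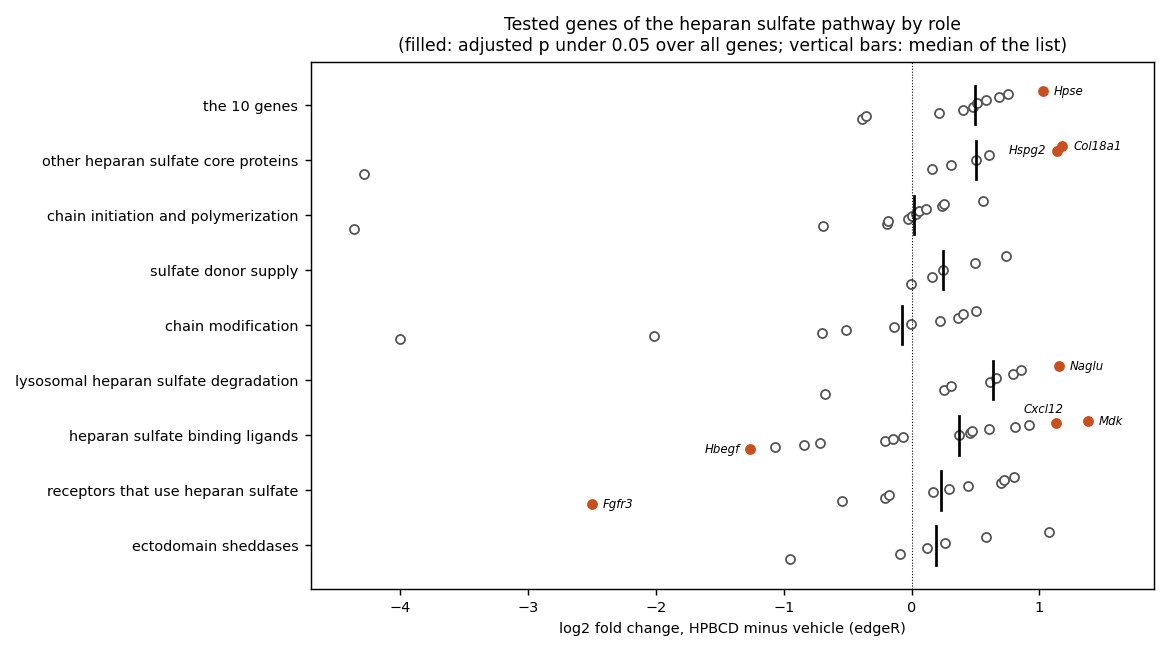
Log2 fold changes between HPBCD and vehicle infarcts for the tested genes of each role, 1 point per gene, with called genes filled and named and the median of each list as a vertical bar. The bar is furthest to the right for lysosomal degradation (0.63), and the chain initiation and polymerization bar lies at 0.02.

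All 7 of these calls were lost without vehicle animal 1, vehicle animal 4, HPBCD animal 1, HPBCD animal 2 or HPBCD animal 3, where edgeR adjusted p-values lay between 0.0635 and 0.177. Without HPBCD animal 4, *Hbegf* (edgeR adjusted p = 0.0601), *Cxcl12* (0.0682) and *Fgfr3* (0.0733) lost theirs. Without vehicle animals 1 and 3, *Hspg2* (0.0498), *Naglu* (0.0419), *Mdk* (0.0440) and *Fgfr3* (0.0341) still passed, while *Col18a1* (0.0736), *Hbegf* (0.0853) and *Cxcl12* (0.0527) did not. Their log2 fold changes kept their sign in every alternative setting.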

How the data were processed

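RNA from 8 infarcts (4 vehicle, 4 HPBCD) was sequenced as paired-end, strand-specific, polyadenylated libraries. Per the labels and the study's methods, the authors used bcl2fastq 2.19, Trimmomatic 0.32, STAR 2.5.2b (GRCm38) and htseq-count. The strand option, HTSeq version and annotation release were not given in the sources used here. The deposited values are raw counts per gene. Lines for reads in no gene, 26.6% to 36.6% of each total, were left out. Reads that align to several places are among them, so near-identical genes are undercounted.

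Symbols matched 45143 of 46078 identifiers. Coordinates and merged exon lengths came from GENCODE M21 (GRCm38) and promoter windows from RefSeq (GRCm38.p6). Counts were tested with the robust quasi-likelihood F test of edgeR 4.0.16 in R 4.3.3 (TMM, filterByExpr, no covariate, Benjamini-Hochberg over 14736 genes). SEs and intervals came from the F statistic. CPM are TMM-scaled, log2 CPM used a prior count of 2, and RPKM divides CPM by merged exon length. DESeq2 1.42.0 (also the tool of the study), limma 3.58.1, other scalings and filters, the replicate block and left-out libraries were alternatives. Leaving out vehicle animals 1 and 3 for pathway genes that were not called was added after seeing the data. The fit was tested on simulated data. No batch is labelled. All 8 libraries differed by more than sampling noise (lowest chi-square per degree of freedom 20.3).

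The 10 genes, the pathway and marker lists and the decision to leave out vehicle animals 1 and 3 were chosen with earlier results of these data known. Genes named beside the 10 are, per list, those called, the 3 with the highest RPKM, and those with the largest rise and fall in log2 fold change, plus the 5 nearest profiles to each called member. *Sgsh*, *Hpse2* and *Ankmy1* were named for a motif, an absence of counts and an overlap, respectively, after their values were seen. A gene that this rule names is not reported here.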

Additional observations from a re-analysis of the deposited data

Results flagged for a closer look

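Each of the 10 genes, the 7 called pathway genes and the library totals were searched, in each group of 4, for an animal far from the other 3 by Dixon's criterion. Of 36 groups, 2 held such an animal, and chance gives about 1.8. *Hs3st1* was at 16.5 CPM in vehicle animal 3 and between 6.08 and 7.81 CPM in the other vehicle animals. Vehicle animal 2 was sequenced to 32.9 M gene counts, against 16.6 M to 17.7 M in the other vehicle libraries.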

How the results depend on the processing

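Of 190 values of the 10 genes over 19 alternative settings, 3 changed sign, all of *Hs3st1*: 0.14 with limma-voom and sample quality weights, 0.0531 without vehicle animal 3 and 0.10 without vehicle animals 1 and 3. Leaving out 1 library gave *Hs3st1* log2 fold changes between -0.51 and 0.0531. *Hpse* kept its call in 6 settings and lost it in 13, with log2 fold changes from 0.76 to 1.21 and adjusted p-values from 0.000745 to 0.175. The number of the 10 genes called, 1 with all libraries by edgeR, became 3, all higher (*Hpse*, *Sulf2* and *Gpc4*), by DESeq2 and by limma-voom with sample quality weights, where 17.5% and 22.1% of all genes were called. It became 0 by limma-voom, by edgeR without robust estimation, with library totals alone, with upper quartile scaling, with the replicate block and without vehicle animals 1 and 3. Leaving out 1 library gave between 0 and 1. No gene of the 10 was called lower in any setting. The 7 calls among other pathway genes (5 higher, 2 lower) became 23 (13 and 10) by DESeq2, 28 (20 and 8) by limma-voom with sample quality weights, 3 (3 and 0) by limma-voom and by edgeR without robust estimation, 1 (1 and 0) with upper quartile scaling, and 0 with library totals alone and with the replicate block. Leaving out 1 library gave between 0 and 12 calls, 0 to 7 higher and 0 to 5 lower.

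Whether animal numbers shared by the groups pair the animals cannot be decided from 4 animals per group. The correlations of same-numbered libraries, as deviations from the group means, were -0.26, 0.24, 0.33 and 0.10. With the replicate block, 9 genes in all were called in place of 287, and 2 of 4 vehicle animals correlated best with the HPBCD animal of their own number. Over all genes, no call remained without vehicle animal 1, vehicle animal 4, HPBCD animal 2 or HPBCD animal 3, where unadjusted edgeR p-values under 0.05 numbered 2922 to 4216. The cause of these shifts was not tested. Depth limits *Hs3st1* most, at 112 to 273 counts per library.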
